A study of Mus musculus with 4 samples.

Results

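A set of 9 fibroblast growth factor (FGF) family genes, the ligand genes Fgf1, Fgf2, Fgf5, Fgf7, Fgf10 and Fgf18 and the receptor genes Fgfr1, Fgfr2 and Fgfr3, were read from 4 Affymetrix arrays of sorted mouse back skin cells. All 9 members were found among the 12393 genes with a symbol of their own, through 13 probe sets, and the probe set of highest mean log2 signal over the 4 arrays stands for its gene. All mice carried K14-GFP-actin, a fusion of GFP and actin driven by the keratin 14 promoter, which basal keratinocytes use. Skin was taken on postnatal day 49, in telogen, the resting phase of the hair cycle. The total group (2 arrays) is RNA of every living cell with GFP. The bulge group (2 arrays) is RNA of those GFP cells that also stained high for α6 integrin and CD34, a sort for the basal layer of the follicle bulge. The total sort still contained bulge cells, and the GFP gate kept cells in which the keratin 14 promoter had been active, so dermal cells were not the target of either sort. The labels name no separate animals for the replicates, so a p-value here reflects the spread of these samples alone, and that spread may be technical.

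FGFs are secreted proteins that bind receptor tyrosine kinases together with heparan sulfate on the cell surface, and the activated receptors signal through docking proteins and the MAP kinase cascade. In skin, Fgf7 and Fgf10 are known as products of dermal cells and, for Fgf7, of the dendritic T cells of the epidermis, and both act on the epithelial splice form of Fgfr2. Fgf18 is known as a ligand of the resting follicle that holds it in telogen, Fgf5 as the signal that ends hair growth, and Fgf1 and Fgf2 as ligands that lack a classical secretion signal. The probe sets do not tell the splice forms of the receptors apart.

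The labels were checked against marker genes. Cd34, the surface marker of the gate, had log2 signals of 9.72 and 10.16 on the total arrays against 13.94 and 13.78 on the bulge arrays. Itga6, the gene of the α6 integrin, was lower on both bulge arrays than on both total arrays, as 20.5% of all genes were. It had 12.46 and 11.77 on the total arrays against 11.69 and 10.73 on the bulge arrays. The Itga6 difference was -0.91 (95% interval -2.22 to 0.41), and its other probe set gave -1.29. Of 10 bulge stem cell markers, all 10 were higher on both bulge arrays than on both total arrays (18% of all genes were), and 5 passed in the limma fit with an intensity trend. Cd34 is counted among these 10 and these 5, although the gate itself selected cells for its protein. The narrowest, Krt15, had 14.18 and 14.49 on the total arrays against 14.84 and 14.53 on the bulge arrays. Signals are summarised probe set intensities on a linear scale, and a background log2 signal of 7.23 (signal of 149.99) was taken as the 95th percentile of 67 olfactory, vomeronasal and taste receptor genes. Each difference is given as bulge minus total, in log2 units. In the principal test, limma without an intensity trend and with Benjamini-Hochberg adjustment over all genes, 0 of 12393 genes passed an adjusted p of 0.05 in either direction, with 642 higher (5.18%) and 655 lower (5.29%) at an unadjusted p under 0.05. The words rose and fell are kept for the limma fit with an intensity trend, which called 69 genes higher (0.557%) and 65 lower (0.524%), and any other fit is named. A further fit tested only the 7249 genes (58.5%) whose mean lay above background in at least 1 group, and called 104 higher (1.43%) and 118 lower (1.63%).

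Of the 9 members, 2 rose in the bulge group, Fgf1 and Fgfr1 (0.557% of all genes were called higher in that fit), and 7 did not pass. Of the 3 fits, Fgf18 passed only in that of genes above background, a filter that it met through its bulge values alone. Fgfr2 and Fgfr3 were well above background in both groups, with no difference that passed in any of these 3 fits. Fgf2, Fgf5, Fgf7 and Fgf10 were below background on all 4 arrays. Both bulge arrays lay above both total arrays for 3 of the 9 genes (18% of all genes did so) and below them for Fgf7 alone (20.5% of all genes).

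**Figure D1:**
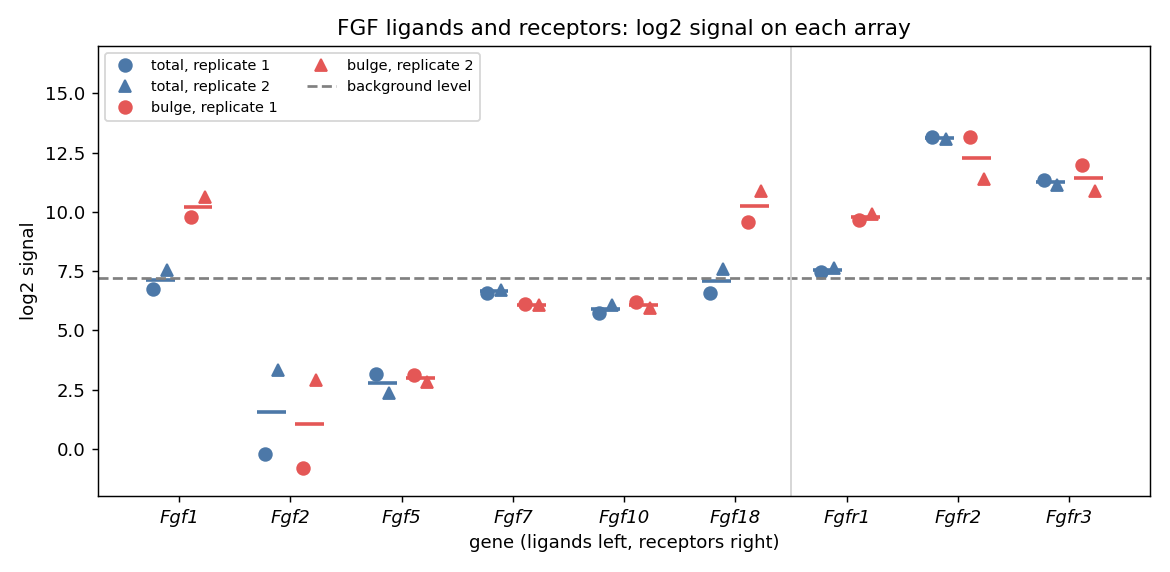
Log2 signal (vertical axis) of the 6 ligand and 3 receptor genes (horizontal axis) on the total (blue) and bulge (red) arrays, with circles for replicate 1, triangles for replicate 2 and bars for group means. Fgf1, Fgf18 and Fgfr1 have both bulge arrays well above both total arrays, and Fgf2, Fgf5, Fgf7 and Fgf10 lie under the dashed background level of 7.23 on every array.

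Fgf18, the ligand tied to the resting follicle, had a log2 difference of 3.15 and Fgf1 one of 3.05, and the order of the pair turned without total replicate 1 or without bulge replicate 2. Fgf18 is the ligand known from telogen, and its values did not overlap between the groups. The groups did not overlap for Fgf1 and Fgfr1 either, but their upstream stretches were not searched. The 250 bases before the annotated start of Fgf18 are shown from RefSeq (GRCm38.p6, chr11:33147401-33147650, minus strand, 5′ to 3′), with the single match to the GC box in capitals.
Fgf18: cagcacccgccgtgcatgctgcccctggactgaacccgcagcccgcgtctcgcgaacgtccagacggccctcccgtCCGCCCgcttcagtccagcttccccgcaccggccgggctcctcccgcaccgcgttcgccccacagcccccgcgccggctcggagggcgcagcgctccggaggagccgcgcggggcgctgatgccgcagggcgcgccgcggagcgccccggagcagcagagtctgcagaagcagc
The stretch had a GC content of 77.2% and 37 CpG dinucleotides, against medians of 52.4% and 6 over 32536 distinct RefSeq promoter stretches of the same length. Searches on both strands covered the TATA box (TATAAA), the CCAAT box (CCAAT), the GC box (GGGCGG), a core of LIM homeodomain factors (TAATTA) and a core of NFAT factors (TGGAAA). The GC box was the only motif of these 5 that was found, as in 33.0% of all stretches, and the motifs occurred in 12.3%, 33.8%, 33.0%, 4.84% and 18.6% of stretches in the order named. Among the other members searched, the GC box matched for Fgf2, Fgf5, Fgf10 and Fgfr3 and not for Fgf7 or Fgfr2. A match is a description of letters and not a binding site.

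Fgf18 had signals of 95.9 and 190.5 on the total arrays against 767 and 1874 on the bulge arrays. One of the 2 total arrays was below background, both bulge arrays were above it, and the groups did not overlap: the lower bulge array stood 2.01 log2 units above the higher total array. The log2 signal was 7.08 ± 0.70 (SD, n = 2) for the total and 10.23 ± 0.91 (SD, n = 2) in the bulge group, a difference of 3.15 ± 0.62 (SE; 95% interval 1.57 to 4.72). With the total values raised to the background level where they lay below it, the bulge signal was at least 7.09-fold higher, a bound that leaves out sampling error. The adjusted p was 0.146 in the principal limma fit and 0.0748 in the trended fit, and neither passed. In the limma fit of genes above background it was 0.0472, but Fgf18 entered that fit only through its bulge values, so this p is no support for the difference. Among those genes, 0.690% had a difference at least as high, a share in the same filtered set and so no support either. The difference was 2.65 without total replicate 1 and 3.64 without total replicate 2. It was 3.79 without bulge replicate 1 and 2.50 without bulge replicate 2. Whether Fgf18 passes cannot be judged in such fits, since the lone array of a group gives no spread of its own. Fgf18 has no other probe set on the array.

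Fgf1, a ligand that can bind every FGF receptor, ran close to Fgf18. Its signals were 108 and 185 on the total arrays against 871 and 1567 on the bulge arrays. The total arrays lay near background, 1 above and 1 below it, and the groups did not overlap. The log2 signal was 7.14 ± 0.55 (SD, n = 2) for the total and 10.19 ± 0.60 (SD, n = 2) in the bulge group, and Fgf1 rose by a log2 difference of 3.05 (95% interval 1.76 to 4.34 in the principal fit). With the total value below background raised to that level, the bulge signal was at least 7.01-fold higher than the total. The adjusted p was 0.0479 in the trended limma fit, 0.0300 in the fit of genes above background, which Fgf1 also entered only through its bulge values, and 0.110 in the principal limma fit. Its other probe set gave log2 signals of 7.09 and 7.72 on the total arrays against 8.95 and 9.63 on the bulge arrays, with a smaller difference of 1.89 (95% interval 0.67 to 3.11) with the groups again apart. Without total replicate 1 the difference of the brighter Fgf1 probe set was 2.66, and without total replicate 2 it was 3.44. The call cannot be judged in such fits, since the lone total array gives no spread of its own.

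The ligands known from mesenchymal cells, Fgf7 and Fgf10, were below background in both sorts. Fgf7, a keratinocyte mitogen, had signals of 96.3 and 104.4 on the total arrays against 68.4 and 66.6 on the bulge arrays. Both bulge arrays were the lower ones, by a log2 difference of -0.57 (95% interval -1.50 to 0.36), which missed the threshold, and all 4 values were below background, so no fold is given. Of 11 measured markers of epidermal T cells, a known source of Fgf7, 8 had both bulge arrays lower (20.5% of all genes), and 2 fell in the trended limma fit. The other 3, Lat, Il2rb and Xcl1, overlapped between the groups. In all, 6 of the 11 were above background in at least 1 group, and the summed signal of the 11 was 2277 to 3802 on the total arrays and 450 to 624 on the bulge arrays. The part of these cells in the Fgf7 signal was not tested. In RNA of sorted pools, fewer cells of a type and less RNA per cell cannot be told apart.

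Fgf10, which shares its receptor with Fgf7, had signals of 53.1 and 67.3 on the total arrays against 72.8 and 60.9 on the bulge arrays, and the groups overlapped. Fgf5 had signals of 8.87 and 5.17 against 8.69 and 7.08, also overlapping. Fgf2 varied most between replicates of the 9 members: its signals were 0.848 and 10.1 on the total arrays against 0.574 and 7.38 on the bulge arrays, and replicate 1 was the low array in both groups. The values of Fgf5 and Fgf2 lie far below background, and those of Fgf10 lie nearer to it but below it on every array. The differences of 0.15 for Fgf10, 0.21 for Fgf5 and -0.51 for Fgf2 therefore carry no order. With the background set at the 75th percentile of the receptor genes instead, a log2 signal of 6.21, Fgf7 alone joined the 5 members counted as above background.

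Fgfr1, the receptor that is best known from mesenchymal cells, rose, while the difference did not pass for Fgfr2 or Fgfr3. Its signals were 179 and 196 on the total arrays against 816 and 967 on the bulge arrays. All 4 arrays were above background, the replicates of each group lay close together, and the groups did not overlap. The log2 signal was 7.55 ± 0.09 (SD, n = 2) for the total and 9.80 ± 0.17 (SD, n = 2) in the bulge group, a 4.75-fold difference of 2.25 ± 0.37 (SE) on the log2 scale (95% interval 1.30 to 3.20). The adjusted p was 0.0479 in the trended limma fit, 0.0300 in the fit of genes above background and 0.110 in the principal limma fit. A difference at least as high was found in 1.79% of the genes above background. For Fgf1 that share was 0.786%, which is no support, since Fgf1 entered that set only through its bulge values. The other Fgfr1 probe set was below background on all 4 arrays, with log2 signals of 6.28 and 5.60 against 5.81 and 5.70, and averaging both probe sets gave a difference of 1.03. Without total replicate 1 the difference of the brighter Fgfr1 probe set was 2.18, and without total replicate 2 it was 2.31. Such fits cannot decide whether the call holds, since the lone total array gives no spread of its own.

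Because fibroblasts also express Fgfr1, markers of fibroblasts and dermal papilla are given beside it. Of 14 measured markers, 2 were above background in at least 1 group, Col1a1 and Col1a2, and the summed signal of the list was 736 to 999.98 on the total arrays and 2018 to 4661 on the bulge arrays. Col1a2 alone had signals of 343 and 286 against 3852 and 1541, which is most of the sum on each bulge array. Both bulge arrays were higher for 2 of the 14 (18% of all genes) and lower for 4 (20.5%). Col1a2, a collagen chain, had log2 signals of 8.42 and 8.16 against 11.91 and 10.59. Its difference was 2.96, and its other probe set gave 4.78. The adjusted p of Col1a2 was 0.0400 in the limma fit of genes above background, 0.0629 in the trended limma fit and 0.129 in the principal limma fit. Col1a1 had 6.87 and 6.16 against 8.46 and 6.56, and its other probe set gave -0.37. The fibroblast genes Pdgfra, Pdgfrb, Col3a1, Lum and Dcn were below background on all 4 arrays. Of 10 endothelial and pericyte markers, only Kdr was above background in either group, and the list summed to 632 to 979 on the total arrays and 691 to 792 on the bulge arrays. The part of Col1a2-expressing cells in the Fgfr1 signal was not tested.

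Fgfr2, whose epithelial form binds Fgf7 and Fgf10, had signals of 9132 and 8495 on the total arrays against 9240 and 2649 on the bulge arrays. Bulge replicate 1 matched the total arrays and bulge replicate 2 was far lower, so the groups overlapped. The log2 difference was -0.83 (95% interval -2.52 to 0.86), with an adjusted p of 0.819 in the principal limma fit. Without bulge replicate 2 the difference was 0.069, and without bulge replicate 1 it was -1.73, so 1 bulge array decides its size and sign. The dimmer Fgfr2 probe set was also lowest on bulge replicate 2, at a log2 signal of 7.02 against 7.66 on bulge replicate 1 and 8.02 and 7.55 on the total arrays.

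Fgfr3, a receptor known to restrain growth in several tissues, had signals of 2628 and 2235 on the total arrays against 3973 and 1866 on the bulge arrays. The bulge arrays lay on either side of the total arrays, and the log2 difference was 0.17 (95% interval -1.11 to 1.44), with an adjusted p of 0.969 in the principal limma fit. Leaving out bulge replicate 1 turned the sign to -0.38, and leaving out bulge replicate 2 gave 0.71. The interval leaves room for a change of more than 2-fold in either direction. Its other probe set was below background on all 4 arrays.

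**Figure D2:**
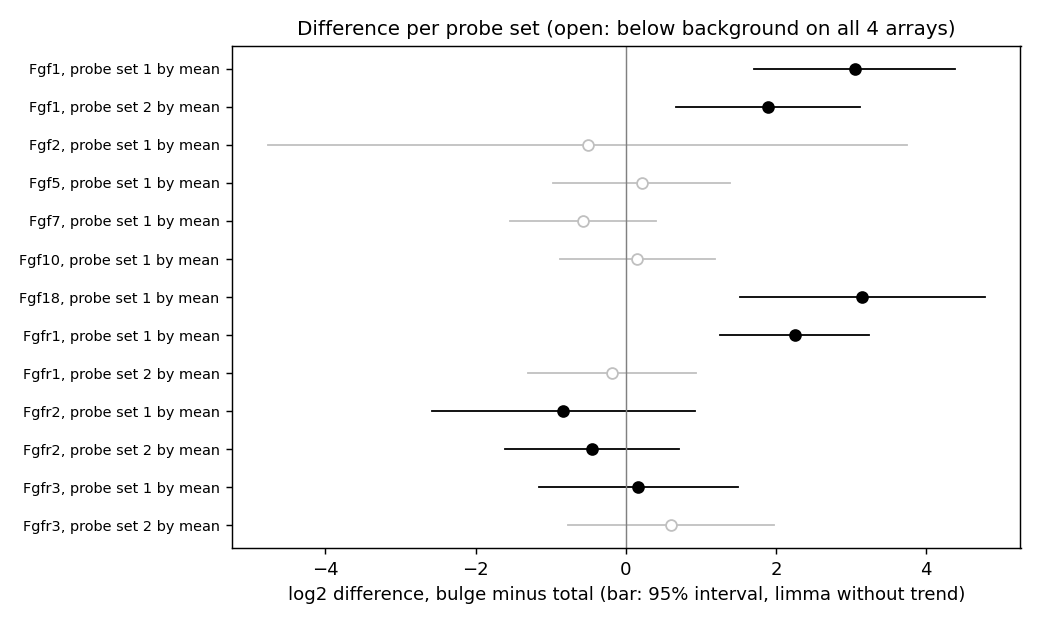
Log2 difference, bulge minus total (horizontal axis), for each of the 13 probe sets of the 9 genes (vertical axis, ordered within a gene by mean signal), with 95% intervals from the limma fit without a trend on all probe sets. Intervals of both Fgf1 probe sets, of Fgf18 and of the brighter Fgfr1 probe set stay above 0, and open symbols mark probe sets below background on all 4 arrays.

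Fgf1, Fgf18 and Fgfr1 kept their direction over the processing settings run on genes, and Fgfr2 and Fgfr3 did not. Over all settings tried on the table of genes, the difference ranged from 2.47 to 3.47 for Fgf1, from 2.50 to 3.79 for Fgf18 and from 1.03 to 2.37 for Fgfr1. Over the 16 settings other than the principal fit that tested all genes, Fgf1 passed in 4, Fgf18 in 2 and Fgfr1 in 4. These settings include the fits that leave out 1 array, in which passing or failing is not informative on a gene. The settings limited to genes above background are left out of these counts, since Fgf1 and Fgf18 enter them only through their bulge values. For Fgfr2 the range was -1.73 to 0.069 and for Fgfr3 -0.38 to 0.71, both spanning 0.

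**Figure D3:**
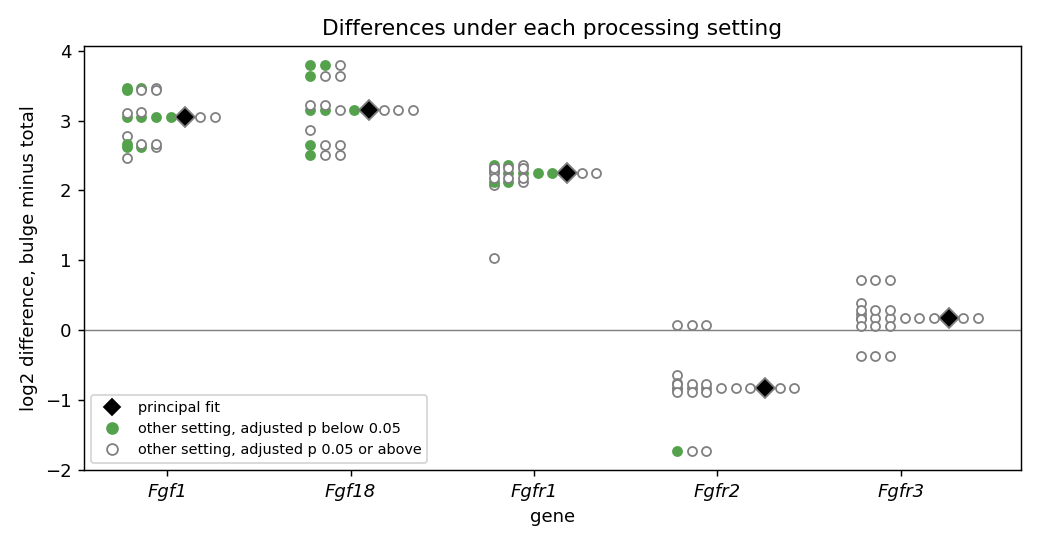
Log2 difference, bulge minus total (vertical axis), of the 5 genes above background in at least 1 group (horizontal axis), with a diamond for the principal limma fit and circles for other settings, filled green where the adjusted p was below 0.05, fits limited to genes above background included. Points of equal value are set side by side. Fgf1, Fgf18 and Fgfr1 stay above 0 in every setting shown, and Fgfr2 and Fgfr3 cross it.

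The similarity of the profiles was described by the Euclidean distance between log2 signals, each centred on its own mean over the 4 arrays, among 7244 other genes above background in at least 1 group. Fgf1 and Fgf18 lay 0.361 apart, nearer to each other than either was to any of these genes. The nearest to both was Cck, the gene of the hormone cholecystokinin, at 0.409 from Fgf1 and 0.445 from Fgf18, with log2 signals of 6.63 and 7.63 on the total arrays against 10.15 and 10.94 on the bulge arrays. Next to Fgf1 came Id3, an inhibitor of basic helix-loop-helix factors, at 0.426, and the T-box factor gene Tbx1 at 0.525. Next to Fgf18 came the small heat shock protein gene Cryab at 0.457 and Id3 at 0.593. For Fgfr1 the nearest genes were the scavenger receptor gene Scara3 at 0.141, the phospholipid phosphatase gene Plpp3 at 0.147 and the cytochrome P450 gene Cyp2d22 at 0.219, and Fgf1 was the nearest member at 1.01. The 4 arrays cannot separate many profiles, so these distances describe the libraries only.

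The other FGF ligand genes were mostly below background. Of 16 measured, 2 were above background in at least 1 group, 1 fell (0.524% of all genes did), 0 rose and 15 did not pass. The median difference was 0.10 against -0.02 over all genes, but most of its genes were below background, it ranged from -0.29 without total replicate 2 to 0.64 without total replicate 1, and it was -1.16 over the 2 genes above background. The gene that fell, Fgf13, encodes an intracellular FGF homologous factor that does not act through FGF receptors. It had log2 signals of 9.28 and 9.37 on the total arrays against 6.55 and 5.96 on the bulge arrays, so both bulge arrays were below background and it was at least 4.28-fold lower there. The difference was -3.07 ± 0.41 (SE), with an adjusted p of 0.0376 in the limma fit with a trend and 0.0882 in the principal limma fit, and its other probe set was below background on all 4 arrays. Fgf22 had log2 signals of 6.67 and 6.45 against 7.81 and 6.82 and did not pass.

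Among the remaining receptors and co-receptors, Fgfr4, Fgfrl1 and the Klotho genes Kl and Klb, 0 of 4 passed. Only Fgfr4 was above background, with log2 signals of 7.54 and 7.39 on the total arrays against 7.38 and 7.37 on the bulge arrays, and its other 4 probe sets were below background on all 4 arrays. The median of the 4 differences was 0.90, and it came from genes below background in both groups.

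Genes that bind FGFs or build heparan sulfate, the co-factor of FGF binding, were measured for 23 of 28 entries. In the trended fit 0 passed, 20 were above background, 8 had both bulge arrays higher (18% of all genes) and 4 had both lower (20.5%), and the median difference was 0.34. By the smallest p the named genes were Extl1, a glycosyltransferase gene of the exostosin family, Gpc6, a glypican, and Fgfbp1, a secreted carrier of FGFs. Extl1 had log2 signals of 8.74 and 9.37 on the total arrays against 5.98 and 6.55 on the bulge arrays, at least 3.54-fold lower, with an adjusted p of 0.0521 in the limma fit with a trend and 0.0287 in the limma fit of genes above background. It met that filter only through its total values, so the second p is no support for the difference. Gpc6 had 7.11 and 6.83 against 9.60 and 8.47, and its other probe set gave a difference of 1.35. Fgfbp1 had 9.72 and 10.25 against 7.64 and 8.70. Neither Gpc6 nor Fgfbp1 passed, with adjusted p-values of 0.137 and 0.173 in the trended limma fit.

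None of the adaptors and kinases downstream of the receptors passed. Of 26 entries 20 were measured and 17 were above background, 3 had both bulge arrays higher (18% of all genes) and 4 had both lower (20.5%), shares near those over all genes. The median difference was -0.24, and it turned to 0.11 without bulge replicate 2 and was -0.53 without bulge replicate 1. The 3 with the smallest p were the small GTPase gene Rras, with a difference of 1.20 (95% interval -0.01 to 2.40), the PI3-kinase regulatory subunit gene Pik3r1, with 1.18, and the MAP kinase scaffold gene Ksr1, with -0.89.

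None of the feedback inhibitors and target genes of FGF signalling passed. Of 26 entries 18 were measured and 13 were above background, 2 had both bulge arrays higher (18% of all genes) and 6 had both lower (20.5%), and the median difference was -0.52. Phlda1, a target gene with a pleckstrin-like domain, had log2 signals of 8.59 and 9.39 on the total arrays against 10.62 and 11.23 on the bulge arrays, with a difference of 1.93 with an adjusted p of 0.117 in the limma fit with a trend. Spred2, an inhibitor of MAP kinase activation, had 10.94 and 10.86 against 10.36 and 9.24, and the AP-1 gene Fos had 13.51 and 14.71 against 11.23 and 13.54. A further 3 genes were singled out after their values were seen because they are among the usual readouts of FGF receptor activity. The Sprouty genes Spry1 and Spry2 had differences of 0.23 (95% interval -1.32 to 1.77) and -0.44 (95% interval -1.63 to 0.75), and the MAP kinase phosphatase gene Dusp6 had -0.33 (95% interval -1.91 to 1.25). Groups overlapped for all 3, and on bulge replicate 2 Spry1 and Dusp6 were lower than on bulge replicate 1, while Spry2 was higher, at 8.89 against 7.93. Spry4, Etv4 and Etv5 of the same list were below background on all 4 arrays, with differences of -1.19, 1.27 and -0.22. Groups overlapped for Etv5 but not for Spry4 or Etv4.

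**Figure D4:**
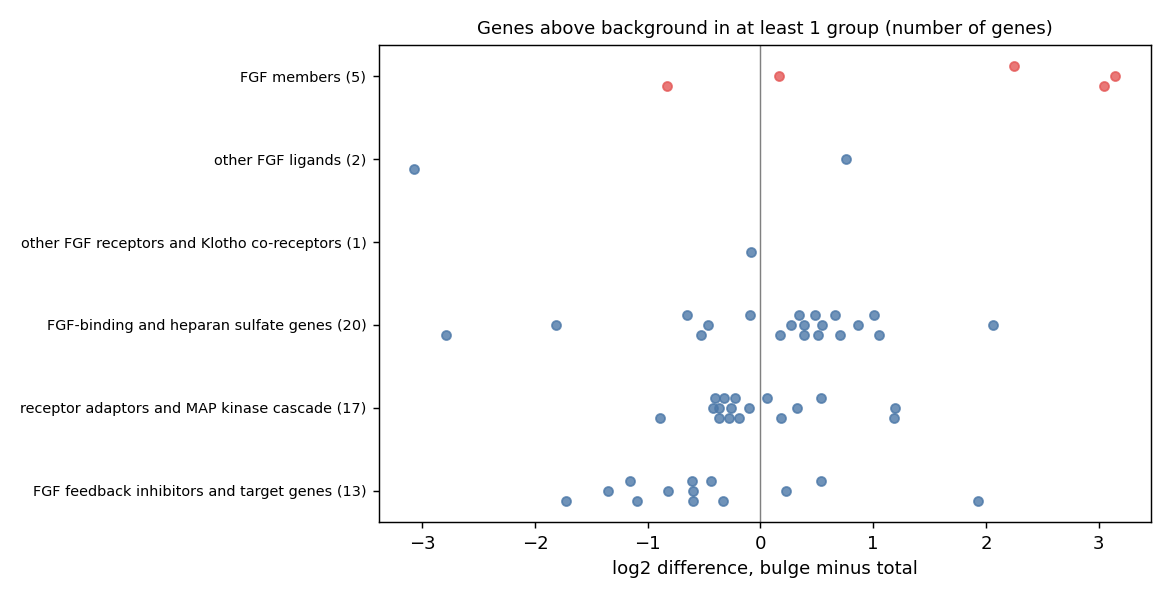
Log2 difference, bulge minus total (horizontal axis), of the FGF genes above background in at least 1 group (red) and of genes of 5 pathway lists above background (blue; numbers of genes in brackets on the vertical axis). Fgf1, Fgf18 and Fgfr1 lie at 2.25 or more, and Fgfr2 and Fgfr3 at -0.83 and 0.17. The adaptors lie between -0.89 and 1.20, and the other lists reach 2.07 (Gpc6) and -3.07 (Fgf13).

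Markers of the inner bulge layer, which neighbours the basal bulge cells and is a known site of Fgf18, are given beside the Fgf18 result. The summed signal of Krt6a, Krt6b and Krt75 was 5686 to 8510 on the total arrays and 14986 to 22120 on the bulge arrays. Krt6a alone had signals of 6529 and 5016 against 21288 and 14385, which is most of the sum on every array. Krt6a had log2 signals of 12.67 and 12.29 against 14.38 and 13.81, Krt75 had 6.95 and 6.63 against 8.17 and 8.52, and Krt6b went the other way, with 10.86 and 9.16 against 9.09 and 7.87. None of the 3 passed, with adjusted p-values of 0.179, 0.164 and 0.513 in the trended limma fit for Krt6a, Krt75 and Krt6b. These Krt6a values are from its brightest probe set, with a difference of 1.61. Both dimmer Krt6a probe sets gave larger differences, up to 3.18, near the 3.15 of Fgf18. The part of inner layer cells in the Fgf18 signal was not tested.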

How the data were processed

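The deposited table holds 1 summarised intensity per probe set on a linear scale, from 0.0546 to 40835, for 22690 probe sets, with trimmed means equal across the 4 arrays. GCOS, RMA, affy 1.36 and R 2.15.1 appear in the submitters' processing notes without a stated role; which of them made the values is not given in the sources used here. RNA (200 ng) was amplified from an oligo-dT T7 primer, per the labels' protocols. Log2 was taken of the deposited intensity. Gene symbols came from the array's platform annotation and were brought up to date through Entrez IDs in RefSeq (GRCm38.p6) for 20351 of 20380 probe sets with 1 symbol; 64 controls, 691 with several symbols and 1555 with none were left out. Tests used limma 3.58.1 in R 4.3.3 on group alone, two-sided, over all genes, with 2 arrays per group limiting the precision. The fit was also run on simulated data with noise independent between arrays. That run required only that fitted differences followed the simulated ones, and it is no check of the p-values. The settings tried were variance models, centring, quantile normalization, log2 of signal plus 32, filters on dim genes, probe set rules, a replicate block and each array left out; leaving out each array in the filtered fit was added after seeing the data. Members and gene lists were chosen with earlier results of these data known. List genes were named where they passed in the principal or trended fit, or else as the 3 with the smallest p above background. Where a group lay below background on an array, that value was raised to the background for a fold given as at least.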

Additional observations from a re-analysis of the deposited data

How the results depend on the processing

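Against 0 genes called higher and 0 lower in the principal limma fit, the calls were 69 higher and 65 lower with an intensity trend, 18 and 19 with log2 of signal plus 32, 104 and 118 for genes above background in at least 1 group, 98 and 104 for these with a trend, and 35 and 26 for genes above background on all 4 arrays. They stayed at 0 with a robust variance, median centring, quantile normalization or the mean of probe sets. Leaving out 1 array gave 0 to 369 higher and 0 to 374 lower over the principal, trended and filtered fits. In such fits the lone array of a group is assumed to vary like the intact pair. Fgfr1 turned to -0.18 with its other probe set, which is below background, and leaving out 1 array moved Fgfr2 from -1.73 (without bulge replicate 1) to 0.069 (without bulge replicate 2) and Fgfr3 from -0.38 to 0.71, while Fgf1 and Fgf18 kept their sign under every alternative; the cause was not tested. Of 114 list medians under alternatives, 93 moved by less than the spread between replicates. The intensity trend, robust variance and replicate block leave every difference as it was, so medians under them could not move. The count therefore overstates how stable the medians were.

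Same-numbered arrays share only a number in the labels, and their deviations from the group means correlated at r = 0.627 over 5780 genes. With the replicate number as a block, limma without a trend called 0 higher and 0 lower, and with a trend 467 and 450. The block gave adjusted p-values of 0.0531 for Fgf1, 0.0531 for Fgf18 and 0.0738 for Fgfr1 without a trend, and 8.46e-05, 7.52e-05 and 7.12e-04 with it. Signal over background limits Fgf2, Fgf5, Fgf7 and Fgf10, which had no measured level on any array.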
